A study of Rattus norvegicus with 2 samples.

Results

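The enzymes described here carry long-chain fatty acids into mitochondria and cleave them there to acetyl-CoA, and their mRNAs were measured in the small mesenteric artery of rats with portal hypertension. They are 10 genes chosen by their place in the pathway: the carnitine palmitoyltransferases Cpt1a, Cpt1b and Cpt2, the acyl-CoA dehydrogenases Acadvl, Acadl, Acadm and Acads, the trifunctional protein subunits Hadha and Hadhb, and the thiolase Acaa2. All probe sets whose only annotated gene symbol was in this list were taken, which gave 14 probe sets out of 7006 with a single symbol, for 10 of 4736 genes. First- and second-order mesenteric branches came from rats whose portal vein had been partly ligated, a prehepatic model in which the narrowing lies before the liver, and from sham-operated control rats. Each group was 1 pool of total RNA from 20 rats, hybridised to 1 Affymetrix RG_U34A array, so no test, p-value or standard error can be given, and precision is limited by the number of arrays. The sources used here do not give strain, sex, age or the time after ligation.

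Long-chain fatty acids cannot cross the inner mitochondrial membrane as CoA esters. CPT1 on the outer membrane moves the acyl group to carnitine, a carrier takes the acylcarnitine across, and CPT2 on the inner membrane restores the CoA ester. Each turn of beta-oxidation then consists of a dehydrogenation, a hydration, another dehydrogenation and a thiolytic cleavage. The first dehydrogenation is shared among enzymes that differ in the chain length they prefer, and the trifunctional protein carries out the last steps for long chains. Fatty acids are one of the fuels of vascular cells, and fat cells around the vessel also express these enzymes.

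The pathway did not differ in one direction. The mRNAs of the long-chain dehydrogenases were lower in the portal hypertensive pool, Acadvl with a signal of 1598 against 2527 in the sham pool and Acadl with 3922 against 6029 in the sham pool. The medium-chain enzyme Acadm, the trifunctional subunit Hadhb and the thiolase Acaa2 had almost equal signals in both pools. At the carnitine step, Cpt1a was lower and Cpt2 higher, each by less than 1.5-fold. Bulk signal of an artery cannot tell fewer cells of a type from less RNA per cell.

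Upstream sequence is shown for 3 of the genes, because the acyl-CoA dehydrogenases differed among themselves and the genes of the trifunctional subunits start close to each other on opposite strands. RefSeq's promoter table for rat, build GRCr8, held 7 of the 10 genes, and Cpt1b, Acadl and Acaa2 are named only. Each window is the 250 bases before the annotated start, written 5′ to 3′ along the gene. For Acadvl, on the minus strand at chr10:55236706-55236955, capitals mark AGGTCA, the hexamer that nuclear receptors such as PPARs recognise. Acadm, on the minus strand at chr2:245542865-245543114, has no capitals because the hexamer was not found. For Hadha, on the plus strand at chr6:31907551-31907800, capitals mark the 200 bases that also lie in the corresponding window of Hadhb, which is read on the other strand at chr6:31907501-31907750.
Acadvl: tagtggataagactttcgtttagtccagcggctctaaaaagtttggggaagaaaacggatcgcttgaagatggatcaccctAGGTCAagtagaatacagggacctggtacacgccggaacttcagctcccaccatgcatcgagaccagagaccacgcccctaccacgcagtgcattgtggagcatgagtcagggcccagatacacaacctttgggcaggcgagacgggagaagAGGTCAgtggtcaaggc
Acadm: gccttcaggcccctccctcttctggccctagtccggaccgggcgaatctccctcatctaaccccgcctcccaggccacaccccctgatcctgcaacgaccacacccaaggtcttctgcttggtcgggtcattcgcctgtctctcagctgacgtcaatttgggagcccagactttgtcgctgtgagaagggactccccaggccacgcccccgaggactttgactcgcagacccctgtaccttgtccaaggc
Hadha: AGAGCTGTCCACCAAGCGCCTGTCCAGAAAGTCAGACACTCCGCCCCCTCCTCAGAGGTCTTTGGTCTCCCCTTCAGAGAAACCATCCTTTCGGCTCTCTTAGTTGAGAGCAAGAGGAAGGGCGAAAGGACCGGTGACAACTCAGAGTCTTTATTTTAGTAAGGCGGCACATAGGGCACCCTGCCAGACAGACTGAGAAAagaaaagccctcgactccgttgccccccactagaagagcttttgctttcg
On either strand, AGGTCA occurred in 4707 of 33469 rat windows of this length (14.1%). Among the 7 genes Acadvl alone held it, 169 and 17 bases before the start, and 1 of 7 is near the share of all windows. Acadl, the other lower dehydrogenase gene, had no window, and a link between hexamer and ratio was not tested. AGGTCA was the only motif searched. The annotated starts of Hadha and Hadhb lie 301 bases apart and point away from each other. These matches are descriptions of the letters in a window.

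**Figure D1:**
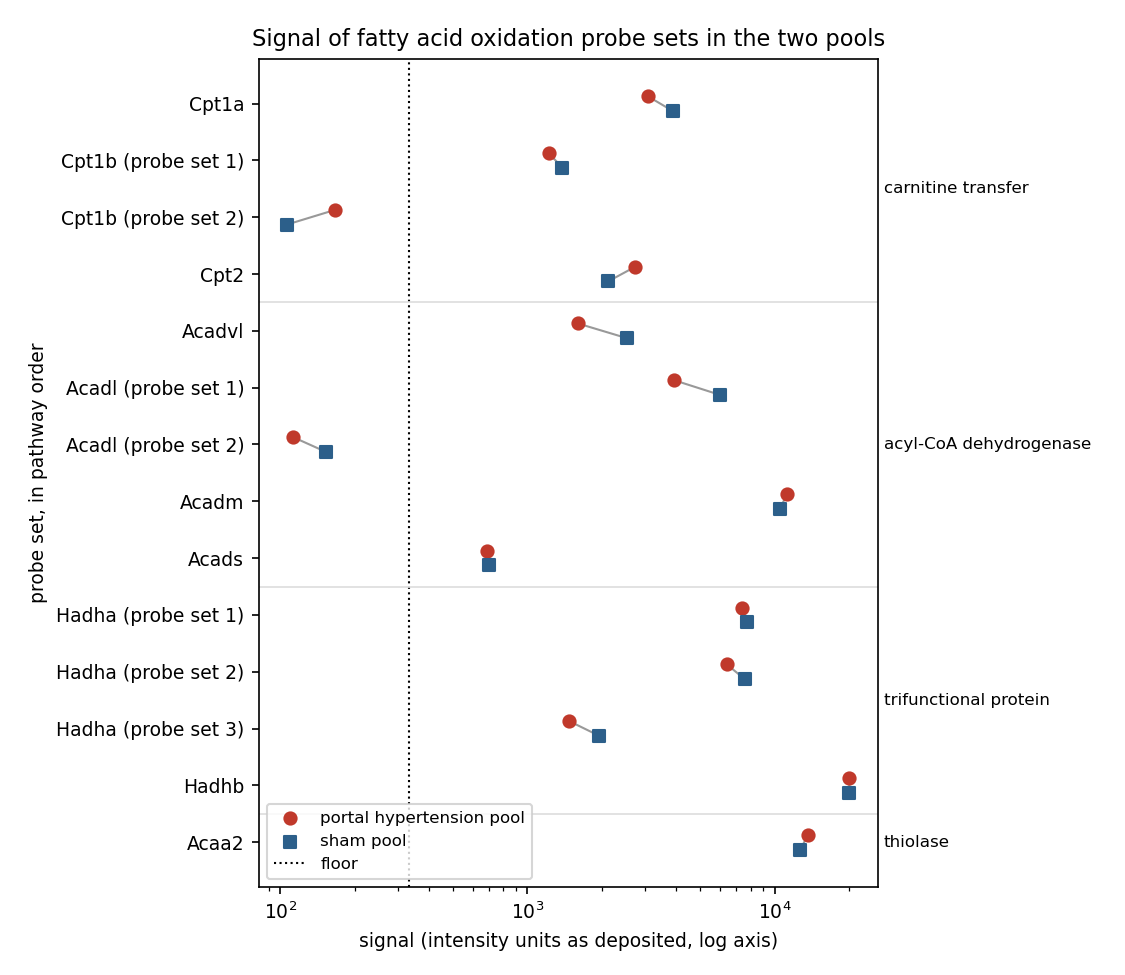
Signal of all 14 probe sets in the portal hypertensive pool (circles) and the sham pool (squares), on a log axis and in pathway order. Probe sets of a gene are numbered in the order of their identifiers. The dotted line is the floor of 330.9 intensity units, and 1 probe set each of Cpt1b and Acadl lies under it in both pools. The gap is widest for Acadvl and Acadl among the probe sets above the floor.

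A signal was called measured when it lay above 330.9 intensity units on both arrays. This floor is the 40th percentile of all values without control probe sets. Of the 14 probe sets, 12 were measured and 2 lay below the floor in both pools, and each of the 10 genes had at least 1 measured probe set. Ratios are given as log2 of portal hypertensive over sham, and the value of a gene is the median over those of its probe sets that exceeded the floor in either pool.

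The only measure of technical spread in these data is the disagreement between probe sets of the same gene. Over 1801 measured probe sets of 789 genes, log2 ratios scattered around the gene's mean with an SD of 0.30. When these genes were split by signal into 3 groups of 263, the SD was 0.36 at low, 0.29 at middle and 0.23 at high signal. Of 1286 pairs of probe sets of the same gene, 12.9% were at least 1.5-fold apart. This scatter leaves out all variation between rats. It also leaves out the spread between different genes, so shares of such pairs given below are no test of a difference between genes.

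Cpt1a encodes the liver-type enzyme of the outer membrane, which malonyl-CoA inhibits and which is regarded as rate-limiting for long-chain oxidation. It had a signal of 3062 in the portal hypertensive pool, against 3866 in the sham pool. The log2 ratio of -0.34 is outside the SD between probe sets of a gene and short of 1.5-fold.

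Cpt1b, the muscle-type isoform of the same enzyme, was measured on 1 of its 2 probe sets, with a signal of 1217 in the portal hypertensive pool and 1386 in the sham pool. Its log2 ratio there was -0.19, within the SD of 0.30. The other probe set had 167.2 in the portal hypertensive pool, against 106.5 in the sham pool, both below the floor. With the floor at the 20th percentile that faint probe set counted too and the gene's value turned to 0.23, so no direction is given for Cpt1b.

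Cpt2, which releases the acyl group from carnitine inside the mitochondrion, had a signal of 2734 in the portal hypertensive pool, against 2120 in the sham pool. Its log2 ratio of 0.37 was the highest of the 10 genes. The ratios of Cpt2 and Cpt1a, enzymes that act in sequence, lay 0.70 apart on the log2 scale, and 8.24% of the pairs of probe sets of a single gene were as far apart or farther.

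Acadvl encodes very-long-chain acyl-CoA dehydrogenase, an enzyme of the inner membrane. Its only probe set gave 1598 in the portal hypertensive pool and 2527 in the sham pool, a log2 ratio of -0.66, or 1.58-fold lower. The rat gene table of RefSeq lists a pseudogene, Acadvl-ps1, and whether the probes match it was not tested.

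Acadl encodes long-chain acyl-CoA dehydrogenase, a matrix enzyme that also takes branched substrates. Its measured probe set gave 3922 in the portal hypertensive pool and 6029 in the sham pool, a log2 ratio of -0.62, or 1.54-fold lower. Its other probe set gave 112.7 in the portal hypertensive pool and 153.1 in the sham pool, below the floor in both. Counting that faint probe set brought the gene's value to -0.53, under 1.5-fold. The measured probe set carries a suffix that Affymetrix gives to probes matching more than 1 transcript, and without such probe sets Acadl has no value.

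Acadvl and Acadl were the 2 genes of the 10 at least 1.5-fold lower. Over all 3351 genes with a value, 5.04% were at least 1.5-fold lower and 3.13% at least 1.5-fold higher, a split that quantile normalization changed to 4.14% lower and 4.50% higher. None of the 10 was at least 1.5-fold higher, and none reached 2-fold in either direction, against 0.776% of all genes at least 2-fold lower and 0.328% at least 2-fold higher. In the tenth of measured probe sets with a signal like that of Acadvl, 4.84% were at least 1.5-fold lower, and in the tenth that holds Acadl, 3.83%.

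Acadm encodes medium-chain acyl-CoA dehydrogenase. Its signal was 11220 in the portal hypertensive pool and 10498 in the sham pool, a log2 ratio of 0.10. Acads, the short-chain enzyme of the same family, had 685.0 in the portal hypertensive pool and 701.3 in the sham pool, a log2 ratio of -0.03. Both values lie well inside the SD between probe sets of a gene.

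Within the family the long-chain members were lower and the medium- and short-chain members near 0, with no replicate to check this. Acadvl lay 0.76 below Acadm on the log2 scale and 0.63 below Acads, and Acadl lay 0.72 below Acadm and 0.59 below Acads. Of the pairs of probe sets of a single gene, 7.0%, 11.1%, 7.85% and 12.9% were at least as far apart as these 4 differences. Pairs of different genes were not examined, so these shares are no test of the contrast. Acadvl and Acadl themselves were 0.04 apart.

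**Figure D2:**
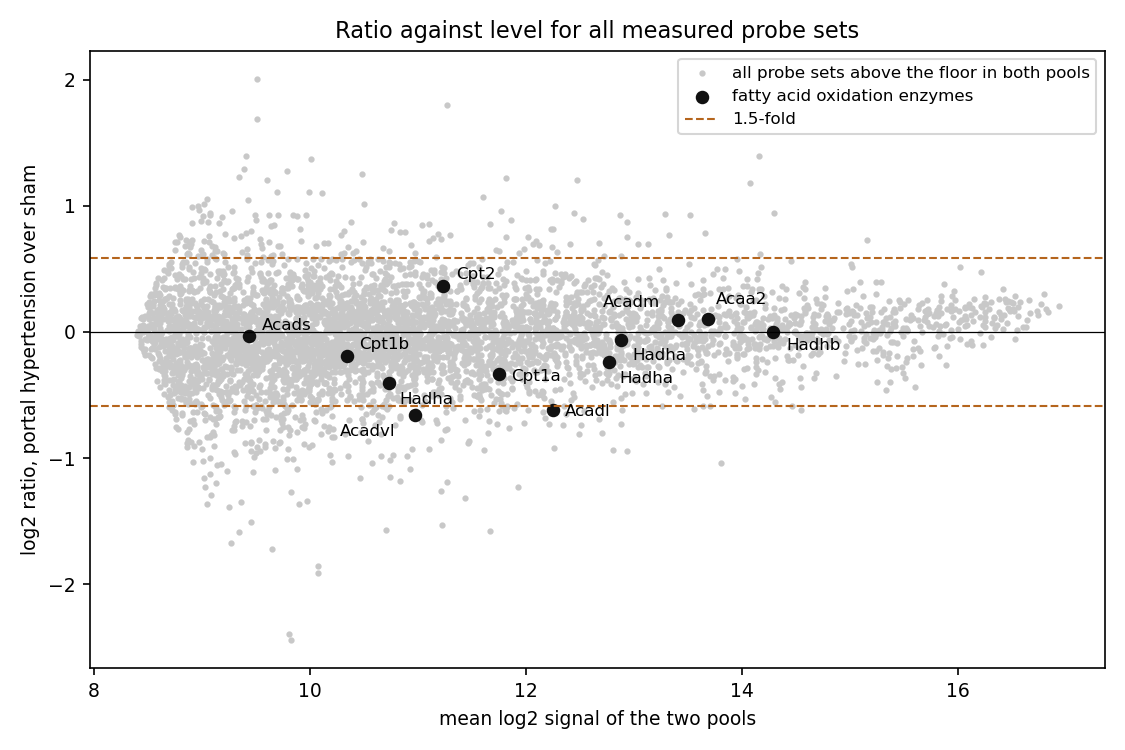
Log2 ratio of portal hypertensive over sham against the mean log2 signal of both pools, for all 4960 probe sets above the floor in both pools (grey) and the 12 measured probe sets of the oxidation enzymes (black). The dashed lines mark 1.5-fold. Acadvl and Acadl lie just under the lower line and the other 10 black points between the lines.

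Hadha encodes the alpha subunit of the trifunctional protein, which holds the hydratase and the long-chain hydroxyacyl-CoA dehydrogenase. Its brightest probe set gave 7398 in the portal hypertensive pool and 7715 in the sham pool, a log2 ratio of -0.06. A probe set designed from the same sequence record gave 6397 in the portal hypertensive pool and 7557 in the sham pool, or -0.24. The remaining probe set gave 1477 in the portal hypertensive pool and 1955 in the sham pool, or -0.40. All were lower in the portal hypertensive pool, by amounts that span 0.34 on the log2 scale. The gene's value is -0.24. The probe set at -0.40 carries a suffix for probes matching more than 1 transcript, and without it the value is -0.15.

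Hadhb encodes the beta subunit, which holds the thiolase for long chains. Its signal was 20033 in the portal hypertensive pool and 20012 in the sham pool, a log2 ratio of 0.00. The subunits, whose upstream windows share the bases in capitals above, differed by 0.24 in log2 ratio, and 49.1% of the pairs of probe sets of a single gene were at least as far apart.

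Acaa2, the matrix thiolase for shorter acyl chains, had 13635 in the portal hypertensive pool and 12684 in the sham pool, a log2 ratio of 0.10. Both thiolase genes of the last step thus lay within the SD between probe sets of a gene.

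Across the 10 genes 4 ratios were above 0 and 6 below, against 46.8% of all genes above 0. Their median was -0.11, and that of all genes with a value was -0.02. Ratios of 6 of the 10 genes were smaller in size than the SD of 0.30, as were 68.7% of all genes. Hadha, counted among these 6 at -0.24, was just outside the SD of 0.23 for genes of high signal. Both shares of the 10 genes are near those of the whole table.

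**Figure D3:**
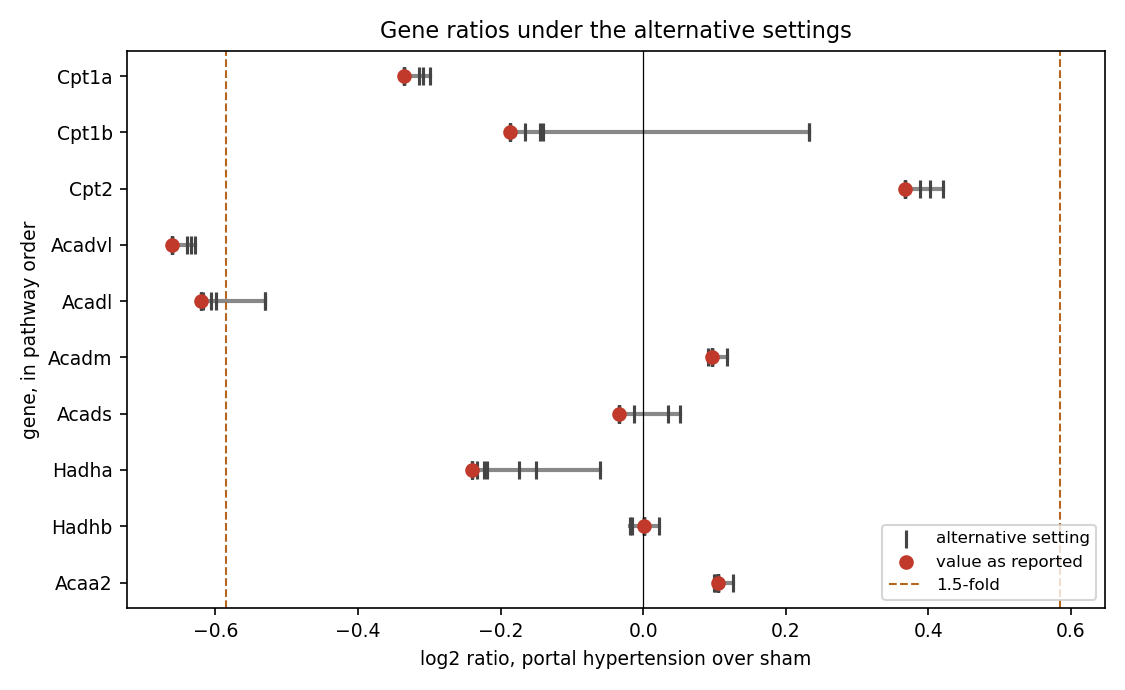
Log2 ratio of each gene as reported (red) and under the alternative settings of floor, scaling and probe set choice (ticks). The dashed lines mark 1.5-fold. Acadvl keeps between -0.66 and -0.63, Acadl crosses the lower line at -0.53, and Cpt1b turns to 0.23.

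Among genes that supply substrate to the pathway, Acsl1 and Slc27a2 were at least 1.5-fold higher. The list of activation and carnitine handling had 8 genes with a value of 12, with 4 above and 4 below 0 and a median of 0.06. Acsl1, which activates long-chain fatty acids for oxidation or storage, had signals of 10539, 1089, 1659 and 5436 on its probe sets in the portal hypertensive pool, against 5777, 604.3, 643.0 and 3361 in the sham pool. It was higher on each, with a gene value of 0.86. Slc25a20, the carrier that brings acylcarnitine across the inner membrane between the CPT enzymes, had 2281 in the portal hypertensive pool and 2430 in the sham pool, a log2 ratio of -0.09. Slc22a5, the carnitine transporter of the plasma membrane, had 0.31, and Slc27a1, a fatty acid transport protein, 0.12. Slc27a2, named after its value was seen, had 503.7 in the portal hypertensive pool against 247.2, under the floor, in the sham pool and was at least 1.52-fold higher. No probe set was named for Crat.

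Auxiliary enzymes of beta-oxidation and its electron acceptors did not follow the long-chain dehydrogenases as a list. Of 20 genes, 10 had a value, 5 above and 5 below 0, with a median of -0.01. Hadh, the matrix hydroxyacyl-CoA dehydrogenase for shorter chains, had 274.6 in the portal hypertensive pool, under the floor, against 548.8 in the sham pool, so it was at least 1.66-fold lower. It was the only gene of the list at least 1.5-fold lower, and none was at least 1.5-fold higher. Echs1, the short-chain hydratase, had a log2 ratio of 0.26, and Hsd17b10, another matrix dehydrogenase, -0.25. Decr1, which reduces dienoyl-CoA from unsaturated fatty acids, had -0.33 and 0.00 on its probe sets, and Eci1, an enoyl-CoA isomerase for such substrates, had a gene value of 0.10.

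The acyl-CoA dehydrogenases pass their electrons to the electron transfer flavoprotein and on to its dehydrogenase. Etfa, the alpha subunit of the flavoprotein, had log2 ratios of -0.05 and 0.28. Etfdh had -0.03, -0.30 and -1.27 on its probe sets, and the last of these rested on signals of 583.2 in the portal hypertensive pool and 1405 in the sham pool. Its probe sets agreed in sign but spread over more than the SD between probe sets of a gene, and the gene value was -0.30. No probe set was named for Etfb.

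Among regulators of the pathway, members of the PPAR family, nuclear receptors that fatty acids activate, did not differ alike. Of 23 genes of PPAR regulation, 12 had a value, 6 above and 6 below 0, with a median of -0.01. Ppara, the receptor best known for driving oxidation genes, had 337.4 in the portal hypertensive pool and 212.9 in the sham pool, just above and under the floor. Ppard had a gene value of 0.13. Pparg, the receptor of fat cell differentiation, had 2062 in the portal hypertensive pool and 1401 in the sham pool, a log2 ratio of 0.56. Its only probe set carries a suffix for probes matching more than 1 transcript, and the same value counts again among the fat cell markers below. Nr1h3, the liver X receptor alpha gene, had 0.62 and was the only gene of the list at least 1.5-fold higher. Rxrb, named because it was the only one at least 1.5-fold lower, was below the floor in the portal hypertensive pool and at least 1.62-fold lower.

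In the list of PPAR regulation, regulated genes with a measured probe set lay below 0 over such probe sets, none by 1.5-fold. By the gene value used elsewhere Pdk2 was at 0.03, and 46.8% of all genes were above 0. No shared direction is read from these few genes. Nr1h3, which was higher, was counted as a regulator. Genes in other lists were not counted here, such as Acsl1, which was higher, and the fat cell markers, 11 of 13 above 0. Ucp3, a mitochondrial carrier gene of muscle that rises with fatty acid supply, had 449.2 in the portal hypertensive pool and 646.0 in the sham pool, a log2 ratio of -0.52 on its measured probe set. Ucp2, its relative in many tissues, had 0.10 and -0.17 and a gene value of -0.04, and Fabp3, a fatty acid binding protein of muscle, -0.11. Cyp4a1, a fatty acid hydroxylase gene and PPAR target named after its value was seen, had -0.21. Pdk2, a kinase that restrains pyruvate oxidation, had probe sets of opposite sign, with 505.1 in the portal hypertensive pool against 736.4 in the sham pool on the measured one, a log2 ratio of -0.54, and a gene value of 0.03 over both. Pdk4, a PPAR target of the same kinase family, was below the floor in both pools, with 31.9 in the portal hypertensive pool and 24.7 in the sham pool. No probe set was named for Ppargc1a.

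Oxidation in peroxisomes, which shortens very long chains before mitochondria take over, was read by 6 genes with a value of 16. Of these, 1 was above and 5 were below 0, the median was -0.08, and none reached 1.5-fold. Cat, the peroxisomal catalase, had a gene value of -0.22, Crot, which makes acylcarnitines for export, -0.12, Abcd3, a transporter of the peroxisomal membrane, -0.11 and Amacr, a racemase for branched chains, 0.12. Ehhadh did not reach the floor in either pool.

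**Figure D4:**
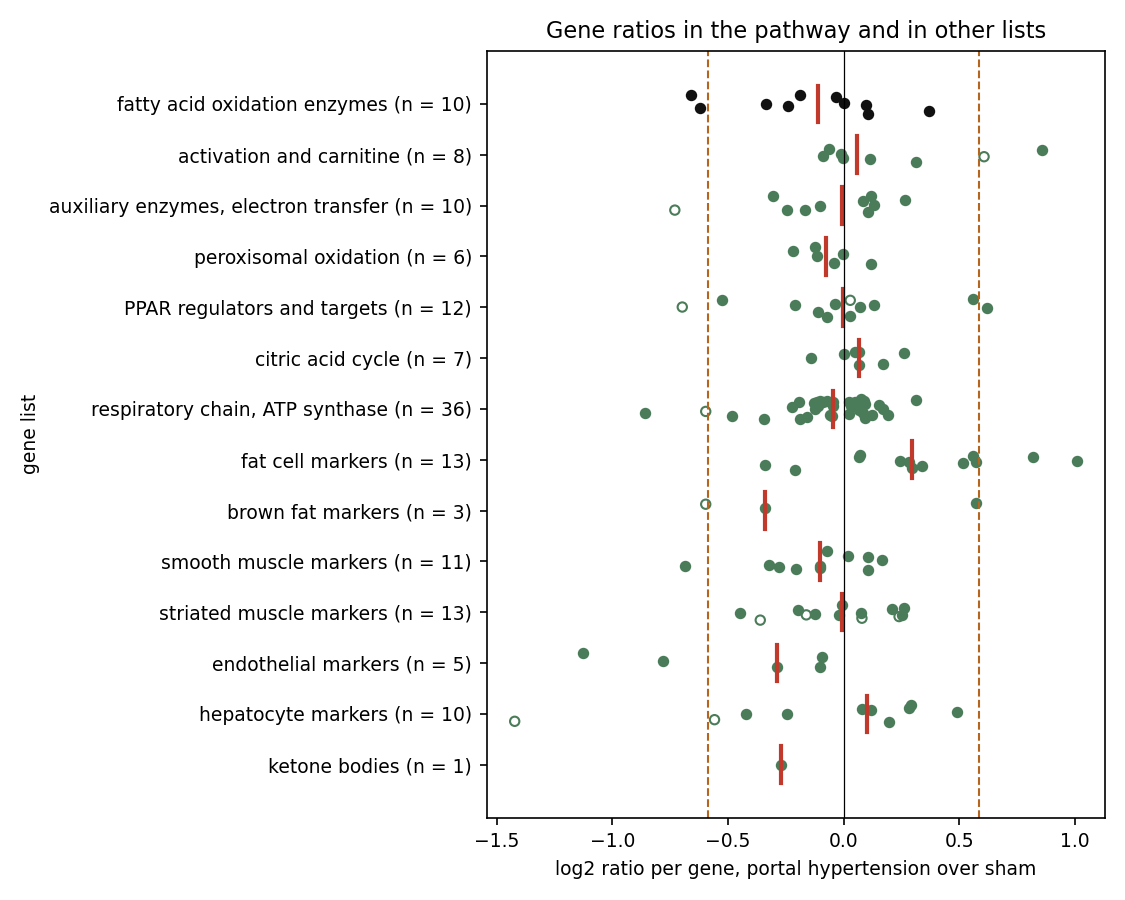
Log2 ratio of portal hypertensive over sham for each gene with a value, by list. Filled points were measured on both arrays and open points on 1 array only, red bars are list medians and dashed lines mark 1.5-fold. The oxidation enzymes spread from -0.66 to 0.37 around a median of -0.11, and the fat cell markers have a median of 0.30.

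Markers of the cells in the samples bear on these enzymes, since several cell types express them. Of 14 smooth muscle genes, 11 were named on the array and all 11 were measured in both pools. This goes with tissue that holds smooth muscle but cannot tell an artery from other such tissue. Of the 11 genes, 4 had a log2 ratio above 0 and 7 below. Their median of -0.10 turned to 0.02 when shared-sequence probe sets were left out. The largest ratios by size were Kcnmb1 at -0.68, Acta2 at -0.32, Des at -0.28 and Cald1 at -0.21. Kcnmb1 had -1.04 on a shared-sequence probe set and -0.33, short of 1.5-fold, on its other probe set. On the other side Tagln had 0.17 and Myl9 0.10, both named after their values were seen, and the list's measured probe sets summed to 939730 in the portal hypertensive pool and 953589 in the sham pool. Fat cell genes were present too, 13 of 21 with a value, and 11 of those were above 0 with a median of 0.30. Their measured probe sets summed to 166250 in the portal hypertensive pool and 122644 in the sham pool. Of these sums, the measured probe set of Scd gave 29482 in the portal hypertensive pool and 11225 in the sham pool. The largest ratios by size were Scd at 1.39 on that probe set, G0s2 at 0.82, Cidea at 0.57 and Pparg at 0.56. The 2 genes below 0, named because of that count, were Adrb3 at -0.34 and Lep at -0.21. Plin1, a coat protein of fat droplets, was below the floor in both pools. The oxidation enzymes summed to 73378 in the portal hypertensive pool and 77049 in the sham pool. The part of fat cells in the values of the enzymes was not tested.

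Brown fat, which is rich in these enzymes, was read by few genes. Ucp1, the defining gene of brown fat cells, was below the floor on both of its probe sets, with 85.2 and 107.1 in the portal hypertensive pool and 115.0 and 295.9 in the sham pool, and Dio2 was below the floor as well. Cidea had a log2 ratio of 0.57 and Adrb3 of -0.34, and Cox8b was above the floor in the sham pool only. The measured probe sets summed to 6515 in the portal hypertensive pool and 5077 in the sham pool. The list median of -0.34 rested on 3 genes with a value, and it was 0.12 over the 2 of them measured on both arrays. Endothelial markers had 5 genes with a value, all below 0, with a median of -0.29 and Icam2 at -1.13, Nos3 at -0.78, Flt1 at -0.29 and Pecam1 at -0.10. The Nos3 probe sets differed in sign, with -0.78, -1.20 and 0.25 on those measured. The measured probe sets of all endothelial markers summed to 8706 in the portal hypertensive pool and 10693 in the sham pool, and Vwf and Kdr were below the floor in both. The part of endothelial cells in the values of the enzymes was not tested.

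The arrays were alike in overall signal, with 59.4% of probe sets above the floor in the portal hypertensive pool and 60.6% in the sham pool. The signal of the 3′ over the 5′ control probe set, a sign of RNA integrity, was 1.79 in the portal hypertensive pool and 2.05 in the sham pool for beta-actin. For GAPDH it was 1.85 in the portal hypertensive pool and 1.83 in the sham pool. The amount of labelled cRNA is noted with a question mark in the file headers as 12.5 µg for the portal hypertensive array and 17 µg for the sham array. Each array was also stained in its own fluidics module. Amount and module cannot be told apart from the operation.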

How the data were processed

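Total RNA of small mesenteric arteries, pooled over 20 rats per group, was read on RG_U34A arrays, per the file headers. For each probe set the authors deposited 1 signal intensity per array, on a linear scale. How it was summarised, scaled and background-corrected is not given in the sources used here. Trimmed by 2% at each end, the column means were 2504.38 in the portal hypertensive pool and 2504.33 in the sham pool, so the values were already scaled and were used as deposited.

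Of 8799 probe sets, 59 were controls and were left out. With controls included, the platform annotation gave 7018 probe sets a single symbol, 308 several and 1473 none. Genes were named from the 7006 single-symbol probe sets that are not controls. Symbols were looked up by gene identifier in a RefSeq table of GRCr8, which changed 0 of them. Of the other 8740 probe sets, 4960 were measured, 567 were above the floor on 1 array only, so that their ratios are bounds, and 3213 lay below it. Values under the floor were set to it before log2.

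With 1 array per group no test was run. Named were all 10 enzymes with every probe set, in each other list up to 4 measured genes by size of ratio, and 22 genes of the pathway whatever their values. The members and lists were chosen with earlier results of these data known. Protein sequences were not analysed here. Other settings tried were floors at the 20th and 60th percentile, no floor, quantile normalization, a loess (span 0.3, statsmodels 0.14.6), median centring, the brightest probe set of a gene, probe sets measured on both arrays only, and probe sets of shared sequence left out. The gene summary over measured probe sets was tested on simulated data with known ratios. Gene values that also use probe sets above the floor on 1 array only were not covered by it. Python 3.11.15, numpy 2.4.6 and pandas 2.3.3 were used.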

Additional observations from a re-analysis of the deposited data

How the results depend on the processing

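No paired analysis was possible because each group is 1 array, and no array could be left out. A value was taken as kept when it moved by less than 0.30 on the log2 scale, the SD between probe sets of a gene, and a count when it stayed within 1.5 times. Of 250 comparisons of the gene values, counts and list medians with their alternatives, 242 kept their value and 8 moved. Many could not move, since a gene with 1 measured probe set has the same value under most choices of probe set. The tally therefore overstates how stable the values are. Acadvl and Acadl, the members past 1.5-fold, kept their sign under each setting that gave a value. The number of genes of the 10 at least 1.5-fold lower was 1 (Acadvl alone) after lowering the floor to the 20th percentile, without a floor and with shared-sequence probe sets left out. The first 2 of these let the faint Acadl probe set count, and the third removes the measured one. The share of all genes at least 1.5-fold lower was 7.97% at the lower floor, 10.3% with no floor and 4.64% without shared-sequence probe sets. Cpt1b was 0.23 at the lower floor and with no floor, where its faint probe set counts. The brown fat median was 0.12 both after raising the floor to the 60th percentile and for measured probe sets only, and 0.57 with shared-sequence probe sets left out, on fewer genes each time, so its sign turned as that of Cpt1b did. Quantile normalization gave 4.50% of all genes at least 1.5-fold higher and 4.14% lower. Of other values smaller than the SD, those of Acads and Hadhb and the medians of the activation, auxiliary, PPAR, respiratory, smooth muscle, striated muscle and hepatocyte lists changed sign under at least 1 setting, Acads between -0.03 and 0.05. Acads has no value at the higher floor, nor has the hepatocyte list. Averaging the signals of measured probe sets, an alternative chosen after seeing the data, gave -0.17 for Hadha and kept all 10 values. Only Hadha could move there, since each other gene of the 10 had 1 measured probe set. Low signal limits what can be said of Cpt1b, Acads and Ppara.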

Other observations

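The citric acid cycle, which burns the acetyl-CoA that the pathway makes, had gene values smaller in size than the SD of 0.30. Of 19 genes, 7 had a value, 6 above 0 and 1 below, against 46.8% of all genes above 0. The median log2 ratio was 0.06 and none reached 1.5-fold. Idh2, the mitochondrial NADP-dependent isocitrate dehydrogenase, had signals of 7637 and 11388 on its probe sets in the portal hypertensive pool, against 5876 and 10330 in the sham pool, and a gene value of 0.26. Mdh2 had 0.17, Sdha 0.07 and Cs, the citrate synthase gene, -0.14. Acat1, the only gene of ketone body metabolism with a value, had -0.27, -0.28 and 0.22 on its probe sets, which differed in sign.

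Nuclear genes of the respiratory chain and ATP synthase were centred near 0. Of 36 genes with a value, 16 were above 0 and 20 below, and the median was -0.05. None was at least 1.5-fold higher and 2 were at least 1.5-fold lower. Ndufs1, an iron-sulphur subunit of complex I, had 549.8 in the portal hypertensive pool and 996.4 in the sham pool, a log2 ratio of -0.86. The other was Cox8b, a muscle form of a cytochrome oxidase subunit and named because of that count, which was below the floor in the portal hypertensive pool and at least 1.51-fold lower. Cox4i2 had -0.48, Ndufs4 -0.34 and Cox7b 0.31.

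Striated muscle markers had a median of -0.01 over 13 genes with a value, 6 above and 7 below 0, with Casq1 at -0.45, Tnnt3 at 0.26, Ckm at 0.25 and Myl1 at 0.21. Hepatocyte markers had a median of 0.10 over 10 genes, 6 above and 4 below 0, with Apob at 0.49, Cps1 at -0.42, Fga at 0.29 and Alb at 0.28, each on 1 measured probe set. Cyp2c11, named because it was the only gene of that list at least 1.5-fold lower, was under the floor in the portal hypertensive pool on each probe set.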
